A study of Homo sapiens with 6 samples.

Results

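The tumour necrosis factor (TNF) superfamily comprises secreted or membrane-bound ligands, the receptors that bind them, and the TRAF adaptors recruited to those receptors inside the cell. Its messenger RNAs were compared between parent MDA-MB-231 cells and an adriamycin-resistant derivative (ADRr). The gene group was every protein-coding gene whose symbol begins with TNFRSF or TNFSF and a number, TRAF1 to TRAF7, and TNF, LTA, LTB, LTBR, CD40, CD27, CD70, TRADD and RIPK1. This gave 49 of 58735 annotated genes: 16 ligands, 5 death receptors, 4 decoy receptors, 15 receptors without a death domain that bind TRAF proteins, and 9 adaptors. MDA-MB-231 is an established human triple-negative breast cancer line, and adriamycin (ADR, doxorubicin) is an anthracycline that damages DNA through topoisomerase II. RNA was sequenced from 3 libraries labelled as parent cells with wild-type genotype and 3 labelled as ADR resistant, all of the same line grown in the same serum-containing medium. ADRr cells had been selected by the authors with stepwise ADR and then cloned by limiting dilution, so that the effect of resistance and the choice of this clone from the parent population are confounded and cannot be told apart. The drug dose at harvest is not given in the sources used here. The series' design text mentions time points that no sample label names, and the 3 libraries of each group were treated as replicates. Nothing states that they came from separate cultures, so p-values measure the spread between these libraries, which may be technical.

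Ligands of this superfamily are trimers that cluster their receptors. Receptors with a death domain (TNFRSF1A, TNFRSF10A, TNFRSF10B, TNFRSF21, TNFRSF25) can assemble TRADD, FADD and RIPK1 and lead to caspase activation or to NF-κB, whereas receptors without one bind TRAF proteins directly and signal mainly to NF-κB and MAP kinases. Decoy receptors bind ligand without passing on a complete death signal. In breast epithelium the pathway is known for RANKL and RANK in mammary gland development, and in tumour cells for TNF and TRAIL as inducers of death or of inflammatory signalling.

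Library totals ranged from 15983985 to 18272314 counts, and 3 counts, taken as the limit of detection, corresponded to 0.164 to 0.188 CPM (counts scaled to a common depth). No library stood apart. The MDA-MB-231 markers VIM, CD44, AXL, EGFR and CAV1 were expressed in all 6 libraries. All 5 were called, EGFR and CD44 higher (log2 fold change 1.39 and 0.80) and CAV1, AXL and VIM lower (-1.30, -0.62 and -0.56). Of 7 luminal markers ESR1, PGR and FOXA1 were at or near 0. The other 4 luminal markers were expressed in both groups, with KRT8 and ERBB2 lower (log2 fold change -2.003 and -1.245), EPCAM higher (1.10) and GATA3 not called (-0.22), and the part of this shift in the results below was not tested. Because several of these receptors and ligands are best known in leukocytes, 20 leukocyte markers were read as well. In both groups 16 of them were under 1 CPM and 6 were at 0 in every library. MS4A1 was at 0, PTPRC had at most 2 counts and CD3E at most 1 count in any library. ITGAM, LCP2 and CD53 were at 0 in all parent libraries. In ADRr libraries ITGAM had raw counts of 6, 6 and 7, LCP2 of 4, 5 and 3, and CD53 of 4, 1 and 3. CD79A went the other way, with 4, 1 and 1 in parent and 0, 0 and 3 in ADRr libraries, and overlapped. The summed level of the list was 15.4 to 21.1 CPM in parent and 30.7 to 32.95 in ADRr libraries, of which CD14, CSF1R, CD8A and CORO1A each had at least 1 CPM. CD8A and CORO1A were higher and CSF1R lower in ADRr cells, and the part of these genes in the results below was not tested.

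Of the 49 genes, 36 passed the filter on low counts and were tested. In ADRr cells 17 were higher and 10 lower, calling a gene at an adjusted p of at most 0.05 with a fold change of at least 1.2 (edgeR quasi-likelihood test, Benjamini-Hochberg adjustment over all genes tested), and 9 were not called. Over all 15242 tested genes 29.2% were called higher and 29.6% lower, so that the share of lower genes in the group, 27.8%, was near the background and that of higher genes was 47.2%. With a log2 fold change of at least 1, 12 were higher and 4 lower, beside a background of 9.74% and 9.05%. Every ADRr library lay above every parent library for 19 tested genes and below for 10 (background 34.5% and 34.7%). The median log2 fold change was 0.26 and the median absolute one 0.89, against -0.0061 and 0.455 over all tested genes. A gene that passed the filter only through the group where it is high had to differ, as holds for LTA and TNFRSF18, so these counts describe the genes that passed and not all 49. By role, 55.6% of the tested ligands, 60% of the death receptors, 0% of the decoy receptors, 60% of the TRAF-binding receptors and 33.3% of the adaptors were called higher, and 33.3%, 40%, 66.7%, 20% and 11.1% lower, over 3 to 10 genes each.

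**Figure D1:**
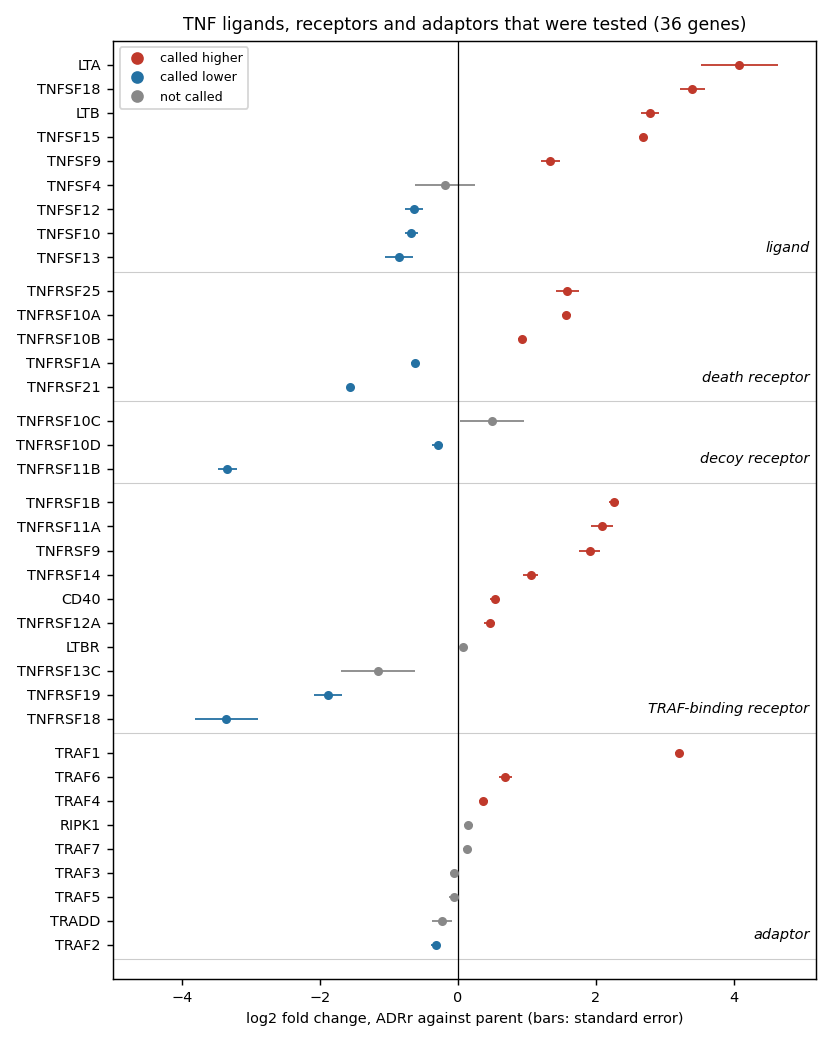
Log2 fold change of ADRr against parent cells (horizontal axis) for the 36 tested genes, grouped by role, with the standard error as bars and colour giving the call. Of 9 tested ligands 5 lie to the right and 3 to the left as called genes, no decoy receptor was called higher, and TRAF1 stands apart from the other adaptors at 3.21. Over all tested genes 29.2% were called higher and 29.6% lower.

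Among the ligands, 5 of 9 tested genes rose and 3 fell, shares of 55.6% and 33.3% beside 29.2% and 29.6% over all genes. The risers were LTA, LTB, TNFSF18, TNFSF15 and TNFSF9, and summed over all 16 ligands the FPKM (fragments scaled by gene length and library size) was 34.4 to 36.3 in parent and 76.0 to 77.0 in ADRr libraries. In the following, values per library are normalised counts, scaled to a common library size, and are given for replicates 1, 2 and 3 in that order. Levels of different genes are compared only in FPKM.

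LTA and LTB encode the subunits of lymphotoxin: LTA alone binds the TNF receptors, and with LTB it forms the membrane-bound ligand of LTBR. LTB measured 50.4, 57.3 and 58.4 in parent and 348, 405 and 398 in ADRr libraries. The groups did not overlap, and the log2 fold change was 2.79 (SE 0.13, adjusted p = 1.86e-14). LTA was barely detected in parent cells, with raw counts of 3, 0 and 2 against 25, 31 and 39 in ADRr cells. The ratio of the depth-scaled totals was 18.05 with a 95% counting interval of 7.47 to 56.9, and the fitted log2 fold change was 4.08 (SE 0.56, adjusted p = 1.08e-06). LTA passed the filter only through ADRr cells, was not tested where at least 10 counts were required in every library, and had a log2 fold change of 4.75 without replicate 1 of parent cells. In FPKM, LTA stayed low at 1.02 ± 0.21 (SD, n = 3) in ADRr cells, far under LTB at 14.3 ± 1.1 (SD, n = 3).

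TNF, the gene between these neighbours, showed no such rise in its few counts. It had raw counts of 1, 10 and 14 in parent and 2, 2 and 6 in ADRr libraries, too few to be tested, and the groups overlapped. LTA, TNF and LTB lie within chr6:31572054-31582522 (GRCh38). The median log2 fold change of the 50 nearest tested genes on the chromosome was -0.39 for LTA and LTB. The stretches upstream of these 3 adjacent genes are shown because LTA and LTB were called higher while TNF could not be tested. They are from RefSeq (GRCh38.p14), read 5′ to 3′ on each gene's strand, within the 250 bases before its RefSeq start and ending where the first annotated exon on that strand begins. Capitals mark matches to TTCNNNGAA, the form of a STAT site, which was searched on both strands together with the AP-1 form TGANTCA and the NF-κB site (κB).
LTA (chr6:31571849-31572053, plus strand): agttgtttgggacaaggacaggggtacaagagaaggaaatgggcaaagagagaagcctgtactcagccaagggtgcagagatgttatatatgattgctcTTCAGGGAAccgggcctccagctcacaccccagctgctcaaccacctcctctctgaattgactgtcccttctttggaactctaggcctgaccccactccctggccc
TNF (chr6:31575315-31575564, plus strand): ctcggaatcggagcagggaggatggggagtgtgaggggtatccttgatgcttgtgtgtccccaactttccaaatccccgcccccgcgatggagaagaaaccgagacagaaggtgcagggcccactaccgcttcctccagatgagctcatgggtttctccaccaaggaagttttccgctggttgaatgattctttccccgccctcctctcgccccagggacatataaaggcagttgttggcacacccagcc
LTB (chr6:31582523-31582675, minus strand): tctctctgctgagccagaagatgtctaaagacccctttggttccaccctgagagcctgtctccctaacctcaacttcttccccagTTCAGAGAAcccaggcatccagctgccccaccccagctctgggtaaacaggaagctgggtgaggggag
LTA and LTB each held 1 STAT form here and the stretch of TNF held none of the 3 forms. The stretches differ in length, with 205 bases for LTA, 250 for TNF and 153 for LTB. In the full 250 bases LTA held a further STAT form 12 bases before the start and LTB a κB match at 86 bases. The part of these forms in the values of the 3 genes was not tested.

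TNFSF15 (TL1A, the ligand of TNFRSF25) became the most abundant ligand. It measured 637, 675 and 630 in parent and 4186, 4055 and 4186 in ADRr libraries, a log2 fold change of 2.68 (SE 0.06, adjusted p = 2.95e-20). Its share of the summed FPKM of all ligands was 13.3% ± 0.31 (SD, n = 3) in parent and 39.4% ± 0.87 (SD, n = 3) in ADRr cells. The gene lies at chr9:114784635-114806126, next to TNFSF8, the CD30 ligand, which had 2, 0 and 1 raw counts in parent and 8, 4 and 3 in ADRr libraries and was not tested.

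TNFSF18, the ligand of the T cell costimulator GITR, measured 20.6, 27.0 and 21.4 in parent and 279, 219 and 232 in ADRr libraries. The groups were far apart, with a log2 fold change of 3.40 (SE 0.18, adjusted p = 1.87e-13). The adjacent TNFSF4, the OX40 ligand, measured 15.4, 13.0 and 16.6 against 15.2, 5.23 and 18.7 and overlapped between groups (adjusted p = 0.728). Both lie within chr1:173039960-173207313. TNFSF9 (4-1BB ligand, a costimulator of T cells) measured 90.6, 94.1 and 111 in parent and 233, 296 and 223 in ADRr libraries. Its log2 fold change was 1.34 (SE 0.14, adjusted p = 2.17e-08), and its neighbours at chr19:6530999-6670588, CD70 and TNFSF14, had at most 9 raw counts in any library.

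The ligands that fell were TNFSF10, TNFSF12 and TNFSF13. TNFSF10 (TRAIL, which kills through TNFRSF10A and TNFRSF10B) was the most abundant ligand of parent cells. It measured 879, 978 and 757 in parent and 600, 496 and 536 in ADRr libraries, with a log2 fold change of -0.68 (SE 0.09, adjusted p = 9.50e-07). Its share of summed ligand FPKM was 40.6% ± 4.7 (SD, n = 3) in parent and 11.7% ± 1.1 (SD, n = 3) in ADRr cells. TNFSF12 (TWEAK, the ligand of TNFRSF12A) fell by 0.63 and TNFSF13 (APRIL, a B cell factor) by 0.86 on the log2 scale (adjusted p = 0.000175 and 0.00075). These 2 genes lie side by side within chr17:7548891-7561608 and share 29.4% and 55.5% of their exon bases with the readthrough gene TNFSF12-TNFSF13. How reads in shared bases were assigned is not given in the sources used here, so their values are uncertain.

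**Figure D2:**
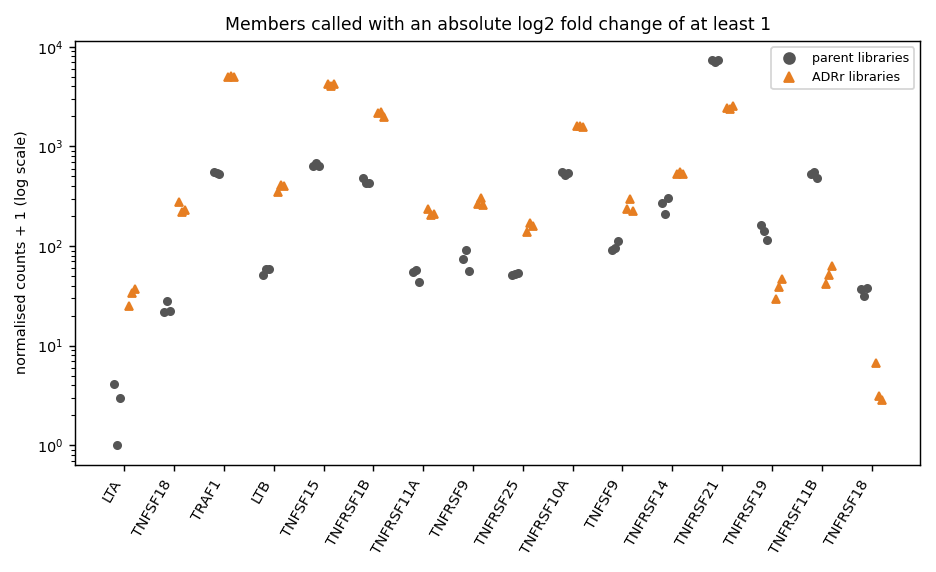
Normalised counts plus 1 in each library (log scale) for the 16 called genes whose log2 fold change was 1 or more in either direction, ordered by fold change, with circles for 3 parent and triangles for 3 ADRr libraries. The 16 genes were chosen for a large called difference, which nearly fixes that their groups lie apart.

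Of the 5 death receptors, 3 rose and 2 fell, shares of 60% and 40% beside 29.2% and 29.6% over all genes. The most abundant one changed. TNFRSF21 (DR6) was the gene with the highest FPKM of all 49 in parent cells, at 115 ± 3.2 (SD, n = 3), and stood at 39.1 ± 1.2 (SD, n = 3) in ADRr cells. It measured 7374, 7027 and 7359 against 2429, 2396 and 2532 normalised counts, a log2 fold change of -1.56 (SE 0.05, adjusted p = 2.06e-17). The gene lies at chr6:47231532-47309905. The median log2 fold change of its 50 nearest tested genes was -0.45, and the part of the region in its difference was not tested.

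The TRAIL receptors with a complete death domain, TNFRSF10A and TNFRSF10B, rose, and their ligand fell as given above. TNFRSF10A (DR4) measured 556, 518 and 540 in parent and 1598, 1619 and 1569 in ADRr libraries, with a log2 fold change of 1.57 (SE 0.07, adjusted p = 2.39e-15). TNFRSF10B (DR5) measured 2937, 3008 and 2936 in parent and 5731, 5672 and 5449 in ADRr libraries, with a log2 fold change of 0.92 (SE 0.05, adjusted p = 1.64e-13). In ADRr cells TNFRSF10B, at 62.5 ± 1.5 FPKM (SD, n = 3), was second of all 49 genes, and it held 40.4% ± 0.81 (SD, n = 3) of summed death receptor FPKM against 17.3% ± 0.67 (SD, n = 3) in parent cells. Of the exon bases of TNFRSF10A, 16.6% lie antisense to other genes, and reads of the strands cannot be told apart where the counting is not stated to use strand.

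TNFRSF25 (DR3, the receptor of TNFSF15) was low but rose together with its ligand. It measured 50.4, 50.8 and 52.6 in parent and 136, 170 and 158 in ADRr libraries, a log2 fold change of 1.59 (SE 0.17, adjusted p = 2.40e-08). It lies at chr1:6460786-6466195 and reached 2.07 ± 0.22 FPKM (SD, n = 3). TNFRSF1A (TNFR1, the main TNF receptor of most cells) measured 2221, 2022 and 2207 in parent and 1348, 1471 and 1356 in ADRr libraries. It fell by 0.63 on the log2 scale (SE 0.06, adjusted p = 4.73e-09).

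None of the 3 tested decoy receptors rose and 2 fell, shares of 0% and 66.7% beside 29.2% and 29.6% over all genes. TNFRSF11B (osteoprotegerin, a secreted decoy for RANKL that also binds TRAIL) measured 530, 552 and 478 in parent and 40.9, 50.2 and 61.6 in ADRr libraries. All ADRr libraries lay far under the parent libraries, a 10.2-fold lower level (log2 fold change -3.35, SE 0.13, adjusted p = 9.54e-16). The gene lies at chr8:118923557-118952200. TNFRSF10D (DcR2, a TRAIL receptor with a truncated death domain) measured 536, 559 and 501 against 445, 444 and 411. Its log2 fold change of -0.30 (SE 0.08, adjusted p = 0.00388) was close to the fold threshold, and without replicate 3 of ADRr cells it was -0.26 and no longer called. TNFRSF10C (DcR1, a membrane-anchored TRAIL decoy) had 6 to 15 raw counts per library and was not called (log2 fold change 0.49, SE 0.47, adjusted p = 0.367), and 39.3% of its exon bases lie in other genes on its strand.

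The 4 TRAIL receptor genes thus differed in direction within a single cluster at chr8:23020133-23225126, in the order TNFRSF10B, TNFRSF10C, TNFRSF10D and TNFRSF10A, with both death receptors at its ends higher. No stretch of 100 exon bases was shared between these receptors. The ratio of FPKM of the death receptors TNFRSF10A and TNFRSF10B to the decoys TNFRSF10C, TNFRSF10D and TNFRSF11B was 2.21, 2.11 and 2.39 in parent and 11.4, 10.9 and 10.99 in ADRr libraries. The ratio of these death receptors to TNFSF10 was 2.99, 2.70 and 3.45 against 9.56, 11.5 and 10.3. Neither ratio overlapped between groups, and with 3 libraries against 3 the 2-sided exact permutation test gave p = 0.1, the smallest this design allows (adjusted p = 0.1 over the 5 ratios computed). In each of the 5, the numerator genes had been called higher and the denominator genes lower, except TNFRSF10C, which was not called. Those calls nearly fixed that the groups would lie apart, so the ratios restate them and add no support.

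**Figure D3:**
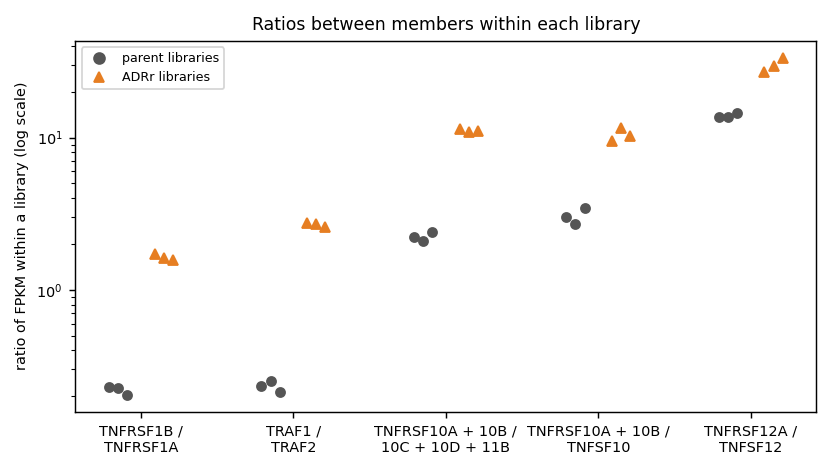
Ratios of FPKM within each library (log scale) for 5 sets of genes, with circles for the 3 parent and triangles for the 3 ADRr libraries. All 5 ratios are higher in every ADRr library, from a mean of 0.219 to 1.63 for TNFRSF1B to TNFRSF1A and from 13.7 to 14.5 in parent to 27.2 to 33.6 in ADRr libraries for TNFRSF12A to TNFSF12. The calls of the genes in each ratio nearly fixed this separation.

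Among 10 tested receptors that bind TRAF proteins, 6 rose and 2 fell, shares of 60% and 20% beside 29.2% and 29.6% over all genes. TNFRSF1B (TNFR2, which has no death domain and recruits TRAF2 and TRAF1) measured 477, 427 and 424 in parent and 2171, 2241 and 1995 in ADRr libraries. The groups were well separated, with a log2 fold change of 2.27 (SE 0.07, adjusted p = 1.44e-17), and the gene lies at chr1:12167003-12209228. The ratio of its FPKM to that of TNFRSF1A was 0.229, 0.225 and 0.204 in parent and 1.71, 1.62 and 1.56 in ADRr libraries (exact permutation p = 0.1, the smallest possible). With TNFRSF1B called higher and TNFRSF1A lower, this separation was nearly fixed. By FPKM, the receptor without a death domain was the less abundant transcript of the TNF receptor pair in parent cells and the more abundant one in ADRr cells.

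TNFRSF11A (RANK, the receptor of RANKL) measured 53.5, 56.3 and 42.9 in parent and 233, 206 and 209 in ADRr libraries. Its log2 fold change was 2.09 (SE 0.16, adjusted p = 6.05e-11). The gene lies at chr18:62325287-62391292, where the median log2 fold change of its 50 nearest tested genes was 0.67, and the part of the region was not tested. Its ligand TNFSF11 was at 0 in all 6 libraries, and TNFRSF11B, the decoy for the same ligand, fell as given above.

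TNFRSF9 (4-1BB) rose together with its ligand TNFSF9. It measured 73.1, 90.9 and 55.5 in parent and 265, 301 and 258 in ADRr libraries, a log2 fold change of 1.91 (SE 0.15, adjusted p = 1.88e-10), and lies at chr1:7915894-7943165. TNFRSF14 (HVEM, a receptor of LIGHT and of LTA) measured 269, 207 and 300 in parent and 530, 553 and 530 in ADRr libraries. No ADRr library reached down to the parent range, and the log2 fold change was 1.05 (SE 0.11, adjusted p = 1.23e-08). It lies at chr1:2555639-2565382, and 13.4% of its exon bases are antisense to another gene.

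TNFRSF18 and TNFRSF19 fell. TNFRSF18 (GITR) measured 36.02, 30.3 and 37.01 in parent and 5.71, 2.09 and 1.87 in ADRr libraries, a log2 fold change of -3.36 (SE 0.46, adjusted p = 9.68e-07). It lies at chr1:1203508-1206691. It passed the filter only through parent cells, with raw counts of 6, 2 and 2 in ADRr cells, was not tested where at least 10 counts were required in every library, and had a log2 fold change of -4.03 without replicate 1 of ADRr cells. The values of the GITR receptor were lower and those of its ligand TNFSF18 higher in ADRr cells, unlike the pairs TNFSF9 with TNFRSF9 and TNFSF15 with TNFRSF25, in which both were higher. TNFRSF19 (TROY) measured 161, 141 and 114 in parent and 28.5, 37.7 and 45.8 in ADRr libraries, with a log2 fold change of -1.88 (SE 0.21, adjusted p = 3.41e-08), and lies at chr13:23570370-23676104.

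TNFRSF12A and CD40 rose by less, and LTBR was not called. TNFRSF12A (Fn14, the TWEAK receptor) measured 3223, 2795 and 3918 in parent and 4510, 4597 and 4569 in ADRr libraries. It rose by 0.46 on the log2 scale (SE 0.08, adjusted p = 1.71e-05) and had the highest FPKM of all 49 genes in ADRr cells, at 141 ± 1.3 (SD, n = 3). CD40 measured 719, 688 and 684 against 1051, 1006 and 965, a log2 fold change of 0.53 (SE 0.07, adjusted p = 5.38e-07). LTBR, the receptor of the LTA and LTB trimer, measured 2028, 1901 and 2158 against 2151, 2183 and 2055, overlapped between groups and was not called (log2 fold change 0.07, SE 0.06, adjusted p = 0.310). TNFRSF13C (BAFF receptor) had 2 to 24 raw counts per library and a log2 fold change of -1.16 (SE 0.53, adjusted p = 0.0597). It was not called, but was called lower without replicate 2 of ADRr cells (log2 fold change -2.19) or replicate 2 of parent cells (-1.38). With all libraries and no filter it was also called lower (log2 fold change -1.155, adjusted p = 0.0453, edgeR).

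Of the 9 adaptors, all tested, 3 rose, 1 fell and 5 were not called, shares of 33.3% higher and 11.1% lower beside 29.2% and 29.6% over all genes. TRAF1 (an adaptor without a RING domain that joins TRAF2 and the cellular inhibitors of apoptosis) changed most. It measured 549, 535 and 531 in parent and 4982, 5036 and 4922 in ADRr libraries, a 9.25-fold higher level (log2 fold change 3.21, SE 0.06, adjusted p = 1.86e-21). Within the 7 TRAF genes its share of FPKM was 6.57% ± 0.29 (SD, n = 3) in parent and 38.6% ± 0.47 (SD, n = 3) in ADRr cells. TRAF1 lies at chr9:120902393-120929173.

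TRAF2 (the adaptor of TNFR1 and TNFR2 complexes that brings in the cellular inhibitors of apoptosis) measured 1336, 1211 and 1418 in parent and 1030, 1052 and 1083 in ADRr libraries. It fell by 0.33 on the log2 scale (SE 0.07, adjusted p = 0.000194), and the FPKM ratio of TRAF1 to TRAF2 was 0.233, 0.251 and 0.213 against 2.75, 2.72 and 2.58 (exact permutation p = 0.1). With TRAF1 called higher and TRAF2 lower, this separation was nearly fixed. TRAF6 (the adaptor shared with interleukin-1 and Toll-like receptors) rose by 0.69 and TRAF4 by 0.37 on the log2 scale (SE 0.10 and 0.07, adjusted p = 1.84e-06 and 6.59e-05). TRAF4 measured 1071, 996 and 1158 in parent and 1403, 1475 and 1295 in ADRr libraries, and 16.9% of its exon bases are antisense to other genes.

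The other adaptors were not called. TRAF3 (which restrains the kinase NIK) and TRAF5 had log2 fold changes of -0.06 and -0.06 (SE 0.06 and 0.08). TRAF7 measured 1333, 1240 and 1317 against 1367, 1482 and 1415, with a log2 fold change of 0.13 (SE 0.06, adjusted p = 0.0632). Of its exon bases, 21.2% are antisense to another gene. RIPK1 (the kinase that links TNFR1 to NF-κB or to cell death) measured 1038, 984 and 954 against 1071, 1104 and 1127, and its log2 fold change of 0.15 (SE 0.06, adjusted p = 0.0467) was under the fold threshold. TRADD (the first adaptor bound by TNFR1) had a log2 fold change of -0.23 (SE 0.14, adjusted p = 0.147), and without replicate 2 of ADRr cells it was -0.38 and called lower.

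By FPKM the order of the leading genes differed between the groups. In parent cells TNFRSF21 at 115 ± 3.2 and TNFRSF12A at 102 ± 17 (SD, n = 3) led and did not differ beyond their spread. TNFRSF10B at 32.8 ± 0.45 and TNFRSF1A at 30.7 ± 1.6 came next, and then TRAF2 at 20.6 ± 1.6 (SD, n = 3). In ADRr cells TNFRSF12A was followed by TNFRSF10B, by TRAF1 at 44.3 ± 0.38, and by TNFRSF21. Next came TNFRSF1B at 32.5 ± 1.8, TNFRSF10A at 31.0 ± 0.40 and TNFSF15 at 30.1 ± 0.63 (SD, n = 3). Among these last 3, neighbours overlapped within 1 SD of their means, though every ADRr value of TNFRSF10A lay above every one of TNFSF15. TRAF1 and TNFSF15 had been 20th and 21st in parent cells. In bulk RNA a smaller share of expressing cells and less RNA per cell cannot be told apart.

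The 13 genes that were not tested had at most 14 raw counts in any library. TNFSF11, TNFRSF17 and TNFRSF6B were at 0 in all 6 libraries, but all exon bases of TNFRSF6B (DcR3) also belong to the readthrough gene RTEL1-TNFRSF6B, and the part of the counting in its 0 was not tested. The other untested genes were TNF, TNFSF8, TNFSF12-TNFSF13, TNFSF13B, TNFSF14, CD70, TNFRSF4, TNFRSF8, TNFRSF13B and CD27. TNFRSF4 (OX40) and TNFRSF8 (CD30) had at most 1 raw count in a library, so that TNFSF4 and TNFSF8 had little receptor transcript in these cells at this depth. Without the filter none of these 10 genes passed the test (adjusted p from 0.151 to 0.989, edgeR).

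Promoters were read for 34 of the 49 genes, those present in the RefSeq table. For each gene 1 RefSeq start was used, which can lie inside the gene as annotated for the counts. The window of TNFSF15, chr9:114792531-114792780, lies within that gene at chr9:114784635-114806126 (minus strand), away from its annotated start. The windows of TNFSF13B and LTBR also lie within their annotated genes. The motif counts describe these windows. The 15 without an entry were TNFSF8, TNFSF12, TNFSF12-TNFSF13, CD70, TNFRSF10A, TNFRSF10B, TNFRSF10C, TNFRSF10D, TNFRSF11B, TNFRSF4, TNFRSF12A, TNFRSF13C, TNFRSF17, CD40 and TRADD. In the 250 bases before the start, a κB site occurred in 3 of 13 higher genes (LTB, TNFRSF9 and TNFRSF14), in 0 of 7 lower genes, and in 5.05% of all 27305 promoters in the table. The AP-1 form occurred in 2 of the 13 (TNFSF15 and TNFRSF9) and 6.6% of all promoters, and the STAT form in 3 of the 13 (LTA, LTB and TNFRSF9) and 6.78% of all, both in 0 of the 7. Of the 8 untested genes with a promoter, 1 held a κB site (TNFSF14), 2 the AP-1 form (TNFSF14 and CD27) and 1 the STAT form (TNFSF11). TRAF1, the adaptor that changed most, held none of these forms in its window. Among the 6 genes not called that had a promoter, 1 held a κB match (TRAF3). With so few promoters per set, these counts cannot show that the sets differ. Stretches of 30 bases around the κB matches of 3 higher genes and of TRAF3 are shown so that the sites can be compared, with the match in capitals, 5′ to 3′ on each gene's strand (RefSeq, GRCh38.p14).
LTB (chr6:31582492-31582521): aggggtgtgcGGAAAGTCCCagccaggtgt
TNFRSF9 (chr1:7940894-7940923): gagctgtggtGGGAATTTCCCatgagaccc
TNFRSF14 (chr1:2556277-2556306): tggactttggGGGGCTCCCCcttctacagg
TRAF3 (chr14:102777406-102777435): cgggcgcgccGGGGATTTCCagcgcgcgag
The match begins 86 bases before the start in LTB, 84 in TNFRSF14 and 33 in TRAF3, and TNFRSF9 holds 2 overlapping matches at 74 and 73 bases. Some windows overlap annotated exons on the same strand. Such exons cover 29 of the 250 bases in LTB, 94 in TNFRSF9, 146 in TNFRSF14 and 0 in TRAF3. The κB stretches shown for LTB, TNFRSF9 and TNFRSF14 lie within the genes as annotated, and that of TRAF3 lies before its annotated start. Annotated exons cover all 250 in TNFSF13, TNFRSF25 and TNFRSF6B. A match describes these letters and is not a measured binding site.

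Proteins that act in the receptor complexes but are not ligands, receptors or TRAF genes were taken as a list of 34 signalling partners, of which 33 were tested. In ADRr cells 11 rose, 6 fell and 16 were not called, with a median log2 fold change of -0.0099. The share of higher genes was 33.3% and that of lower genes 18.2%, beside a background of 29.2% and 29.6%. The largest increases were TNFAIP3 (A20, a ubiquitin-editing inhibitor of NF-κB), CYLD (a deubiquitinase that also restrains it) and RBCK1 (HOIL-1, of the linear ubiquitin ligase). TNFAIP3 measured 842, 808 and 765 in parent and 2124, 2195 and 2057 in ADRr libraries, a log2 fold change of 1.40 (SE 0.06, adjusted p = 6.42e-15). CYLD rose by 1.25 and RBCK1 by 1.24 on the log2 scale (both SE 0.06, adjusted p = 1.57e-14 and 4.44e-14), while RNF31 and SHARPIN, which join RBCK1 in the ligase, were not called (log2 fold change 0.04 and -0.14).

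The largest falls were TAB1 by 0.69, IKBKE by 0.55 and FADD by 0.45 on the log2 scale (adjusted p = 6.51e-07, 3.26e-08 and 0.000869). FADD joins death receptors to caspase-8, and it measured 537, 452 and 661 in parent and 384, 424 and 403 in ADRr libraries. CASP8 rose by 0.58 and CFLAR, the inhibitor that competes with it, by 0.63 on the log2 scale (adjusted p = 2.08e-06 and 1.82e-09). The inhibitor of apoptosis genes moved in opposite directions, BIRC3 rising by 1.06 and BIRC2 with a log2 fold change of -0.42 (adjusted p = 4.53e-12 and 3.29e-06). ADAM17, the protease that sheds TNF and its receptors, rose by 1.04 (adjusted p = 3.37e-12). The median log2 fold change of its 45 nearest tested genes was 0.67, and the part of the region was not tested.

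Superfamily genes with other symbols were read as a list of 8, of which 4 were tested. NGFR (the p75 neurotrophin receptor, which has a death domain) measured 42.2, 50.8 and 54.5 in parent and 1057, 1130 and 1155 in ADRr libraries. Its log2 fold change of 4.50 (SE 0.11, adjusted p = 1.68e-19) stood beside 4.08 for LTA, whose counting interval of 7.47 to 56.9 includes the 22.6-fold difference of NGFR, so that these 2 are not ordered. FAS rose by 0.91 (SE 0.18, adjusted p = 0.000132), RELT fell by 0.30 (adjusted p = 0.00855), and EDA was not called (log2 fold change 1.03, SE 0.50, adjusted p = 0.0773). FASLG, CD40LG and EDA2R were at 0 in all libraries, so that for FAS and CD40, both higher in ADRr cells, no ligand transcript was detected at this depth.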

How the data were processed

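RNA from 3 parent and 3 ADRr libraries had been sequenced by the authors. The deposited tables hold raw counts per gene and FPKM values, which the authors scaled by gene length and library size. Per the labels' processing notes, fastp, HISAT2 2.0.5, featureCounts 1.5.0-p3 and DESeq2 1.20.0 were used with GRCh38. Strandedness is not given in the sources used here. The sources name different library kits.

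The analysis used edgeR 4.0.16 under R 4.3.3. Genes kept by filterByExpr (15242) were TMM normalised and compared by the quasi-likelihood test without a block, with Benjamini-Hochberg adjustment over all of them. Normalised counts use the TMM library sizes. DESeq2 1.42.0, limma 3.58.1 on log2(FPKM + 1) or log2(FPKM + 0.1), other filters and thresholds, a replicate block, and leaving out each library were alternatives. Scripts were tested on simulated data. Intervals on counts cover counting error only.

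The members and lists were chosen with earlier results of these data known, and the motif search was chosen after the values were seen. Called genes whose log2 fold change was 1 or more in either direction are given per library, as are those with a mean of at least 10 FPKM in a group. Other members are given by fold change or counts. Of the partners, the 3 largest rises and falls were named by rule. CASP8, CFLAR, BIRC2, BIRC3, ADAM17, RNF31 and SHARPIN were chosen after their values were seen.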

Additional observations from a re-analysis of the deposited data

How the results depend on the processing

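Over 15 alternatives that gave a fold change for the 36 tested genes, 521 of 529 values kept direction and call, and 32 genes did so in every alternative that could be fitted. With the threshold at 1.2 on the log2 scale, 11 genes of the group were higher and 4 lower, and of the signalling partners 3 were higher and 0 lower. With limma on log2(FPKM + 1) and no filter, 3 partners were lower and the group's median log2 fold change was 0.076. The median was 0.379 with at least 10 counts in every library, where fewer genes were tested, and 0.134 without replicate 3 of ADRr cells. Leaving out each library in turn gave 17 higher and 9 to 12 lower genes of the group, 10 to 11 higher and 5 to 7 lower partners, and a median of 0.134 to 0.278. TNFSF4, not called, turned from -0.18 to 0.18 without replicate 2 of ADRr cells (adjusted p = 0.746, edgeR) and ranged from -0.53 to 0.18 over the libraries left out. TNFRSF10D missed the fold threshold in 3 alternatives. The cause of these changes was not tested. The replicate numbers gave no sign of pairing the samples. Across tested genes, the deviations of same-numbered libraries from their group means correlated at 0.00686, -0.0216 and -0.0456. With the replicate block, 17 genes were higher and 10 lower, the median was 0.26, and 11 and 6 partners were called. Depth limits the 13 genes with at most 14 counts in a library, which were too low to be tested with all 6 libraries. Without replicate 1 of parent cells, 11 genes of the group were lower. The gene added to the 10 was not among the 36 tested genes.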
